A study of Mus musculus with 9 samples.

Results

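The glandular kallikreins, the tissue kallikrein Klk1 and the mouse-specific Klk1b proteases, were followed on 9 arrays of the lateral nasal gland, a secretory gland of the mouse nose. All probe sets whose annotated symbol was, or included, Klk1 or a symbol starting with Klk1b were taken, each on its own. This gave 14 of the 22626 probe sets on the array that are not controls, standing for 12 of 13319 genes. Of the 14, 12 carried a single symbol. Probe set 1419090_x_at is annotated to both Klk1b26 and Egfbp2, and 1425182_x_at to both Klk1b9 and Klk1b22, so neither can be assigned to a single kallikrein. In all, 5 of the 14 are of the x type, whose probes can be shared between similar transcripts. Klk1 has 3 probe sets and Klk1b5 has 2. The other members have 1 each, namely Klk1b1, Klk1b8, Klk1b11, Klk1b16, Klk1b21, Klk1b24 and Klk1b27 and the probe sets with a double symbol.

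The arrays compared wild-type 129/Sv males (2 arrays), wild-type C57BL/6 males, here B6 (4 arrays), and Cyp2g1-null males (3 arrays). Cyp2g1 encodes a cytochrome P450 of the nasal mucosa, and the null line was on a mixed background of 129/Sv and C57BL/6, which is why both strains served as controls. All mice were 2 to 3 months old, and each array held RNA pooled from the glands of 10 mice. The spread behind each p-value is therefore the spread between pools. How the null allele was made, and which strain's chromosomes the null mice carry at any locus, is not stated in the labels, so loss of Cyp2g1 and inherited strain alleles cannot be told apart in a comparison of null mice with either strain. The comparisons with B6 and with 129/Sv share the null arrays, and those with B6 and between the strains share the B6 arrays, so they are given side by side and not as independent evidence.

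Glandular kallikreins are secreted serine proteases encoded by neighbouring genes that arose by duplication. Klk1 cuts kininogens to release kinins, peptides that widen vessels and raise their permeability. In the mouse the Klk1b copies are best known from the granular duct cells of the submandibular salivary gland, where androgens raise their transcripts, and individual members bind or process growth factors and hormones. Klk1b9, Klk1b22 and Egfbp2 are known as epidermal growth factor-binding proteins, Klk1b26 as a prorenin-converting enzyme and Klk1b16 as gamma-renin.

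The promoters of 4 members that the results turn on are given here so that the reader can compare the duplicated genes directly. Klk1 is the gene the family is named after, and Klk1b5, Klk1b11 and Klk1b26 are annotated to the Klk1b probe sets with a difference past the threshold between null and B6 arrays, that of Klk1b26 being shared with Egfbp2. Each run is the 250 bases before the annotated start on the plus strand of chromosome 7 (RefSeq, GRCm38.p6), 5′ to 3′, and capitals mark TTTAAA, a variant of the TATA box. This reference is the C57BL/6J genome, so the letters are those of the B6 strain, and the 129/Sv sequence was not used here. The windows are chr7:44225110-44225359 for Klk1, chr7:44216224-44216473 for Klk1b5, chr7:43995627-43995876 for Klk1b11 and chr7:44012428-44012677 for Klk1b26.
Klk1: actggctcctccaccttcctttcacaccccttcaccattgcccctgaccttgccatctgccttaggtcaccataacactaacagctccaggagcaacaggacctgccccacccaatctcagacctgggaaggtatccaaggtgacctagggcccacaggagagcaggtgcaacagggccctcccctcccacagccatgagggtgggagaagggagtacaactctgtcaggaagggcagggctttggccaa
Klk1b5: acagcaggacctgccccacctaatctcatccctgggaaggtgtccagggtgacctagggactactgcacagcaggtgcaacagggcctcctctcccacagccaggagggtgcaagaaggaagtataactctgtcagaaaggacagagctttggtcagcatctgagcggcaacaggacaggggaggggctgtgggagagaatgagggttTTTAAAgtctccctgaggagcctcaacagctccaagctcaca
Klk1b11: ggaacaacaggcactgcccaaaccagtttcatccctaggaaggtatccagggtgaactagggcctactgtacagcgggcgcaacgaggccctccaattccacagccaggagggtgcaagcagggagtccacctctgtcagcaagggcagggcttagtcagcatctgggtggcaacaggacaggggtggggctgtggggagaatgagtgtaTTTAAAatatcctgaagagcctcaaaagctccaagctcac
Klk1b26: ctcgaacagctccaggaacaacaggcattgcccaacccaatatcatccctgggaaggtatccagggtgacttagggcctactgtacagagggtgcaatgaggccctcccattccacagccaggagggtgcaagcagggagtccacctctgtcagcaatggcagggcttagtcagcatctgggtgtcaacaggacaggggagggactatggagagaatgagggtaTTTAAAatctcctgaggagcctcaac

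The table of promoters held a window for each of the 12 member genes. Searched on both strands, TTTAAA (a palindrome, the same on either strand) was found in 10 of the 12, against 12.1% of 32851 mouse promoter windows of the same length. It lay at -42 to -37 in Klk1b5, at -40 to -35 in Klk1b11 and at -26 to -21 in Klk1b26, counted from the annotated start. The 2 windows without it were those of Klk1 and Klk1b21. By the letters they share with the others, both windows end before the stretch that holds TTTAAA there. Whether Klk1 and Klk1b21 have TTTAAA at that place therefore cannot be read from these windows. For Klk1b16 and Klk1b21 the window in the table lies inside the annotated span of the gene and not before its first base, so for these the place of the window, and with it the count, is uncertain. The canonical TATAAA was in 0 of the 12 windows (12.4% of all windows). A shared run, gtcagcatctg, was present in 10 of the 12 windows and in 21 of all 32851. The Klk1 window ends within the matching stretch, so for Klk1 the run could not be read in full. Aligned over the window, the 66 pairs of members had between 48.8% and 90.4% of the 250 bases identical, with a median of 79%. Klk1b11 and Klk1b26 shared 86.4%, Klk1b11 and Klk1b5 83.6%, and Klk1b26 and Klk1b5 80%. Klk1 had fewer of the 250 bases identical, at 54.4% with Klk1b5, 52% with Klk1b11 and 56.8% with Klk1b26. However, the Klk1 window aligned with these over only 157, 161 and 175 bases, of which 86.6%, 80.7% and 81.1% were identical. Klk1b11 with Klk1b26, Klk1b11 with Klk1b5 and Klk1b26 with Klk1b5 aligned over 236, 246 and 232 bases. Of these, 91.5%, 85% and 86.2% were identical. The lower share of Klk1 thus goes mostly with a shorter aligned part. A match describes these letters in these windows and no more.

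The array signals are MAS5 intensities on a linear scale, and each array's median over all probe sets lay between 518.6 and 550. Obp1a and Obp2a, odorant-binding proteins that mark this gland, had group mean signals from 128752 to 161829, and Cyp2g1 signals were 55.7 to 201.1 on null arrays, 207.5 and 981.2 on 129/Sv and 748.2 to 5916.8 on B6 arrays. Tests were made with limma on log2(signal + 16) over the 12575 probe sets that exceeded their own array's median on at least 2 arrays, with Benjamini-Hochberg adjustment over all of them and a threshold of 0.05. A fold given below is on this scale. Of the 14 kallikrein probe sets, 9 passed this filter. Of those, 4 (both for Klk1b5, that for Klk1b21 and that shared by Klk1b26 and Egfbp2) were above the array median on no B6 array and passed only through 129/Sv and null arrays, so counts of calls among the 9 describe those probe sets and are not support for a change of the family.

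Klk1 was lower in B6 glands than in either other group on 2 of its 3 probe sets. Probe set 1448107_x_at read 40768.1, 40802.6, 58537.5 and 61402.1 on the B6 arrays, 66297.8, 76141.3 and 92551.7 on the null arrays and 84233 and 80097.5 on the 129/Sv arrays. Every B6 array lay below every array of the other groups, and null and 129/Sv values overlapped. The second of these, 1415837_at, which was designed to the same transcript, read 40392.6, 40901.4, 56089.8 and 59080.5 on the B6 arrays, 63153.1, 70220.5 and 87525.2 on the null arrays and 79274.1 and 76504.9 on the 129/Sv arrays. Across the 9 arrays these probe sets had a Pearson correlation of 0.999, so they are not separate measurements of Klk1. The group mean of 1448107_x_at was 50378 ± 11138 (SD, n = 4) for B6, 78330 ± 13263 (SD, n = 3) for the null line and 82165 ± 2924 (SD, n = 2) for 129/Sv. In pooled tissue RNA, fewer cells making a transcript and less transcript per cell cannot be told apart.

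Klk1 was 1.57-fold higher in null than in B6 arrays by 1448107_x_at (log2 difference 0.65, SE 0.149, limma adjusted p = 0.0369) and 1.51-fold higher by 1415837_at (0.59, SE 0.14, limma adjusted p = 0.0441). B6 was lower than 129/Sv on both, with log2 differences of -0.73 (SE 0.169, limma adjusted p = 0.0205) and -0.69 (SE 0.159, limma adjusted p = 0.021). Between null and 129/Sv neither probe set differed beyond its spread, with log2 differences of -0.08 (95% confidence interval -0.46 to 0.30, limma adjusted p = 0.919) and -0.09 (-0.45 to 0.27, limma adjusted p = 0.897). The B6 arrays fell into pairs, with arrays 1 and 2 below arrays 3 and 4. Without arrays 1 and 2 the difference of null from B6 was 0.37 (limma adjusted p = 0.0982) and 0.34 (limma adjusted p = 0.123), and that of B6 from 129/Sv was -0.45 (limma adjusted p = 0.0602) and -0.44 (limma adjusted p = 0.0697).

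The Klk1 calls also depended on single arrays. For 1448107_x_at the adjusted p of null against B6 rose to 0.0509 without 129/Sv array 1, 0.094 without B6 array 2, 0.122 without null array 2 and 0.18 without null array 3. For 1415837_at it rose to 0.0577 and 0.0571 without 129/Sv array 1 or 2, 0.0517 and 0.111 without B6 array 1 or 2, and to 0.123 when null array 2 was left out and 0.203 when null array 3 was. For B6 against 129/Sv it rose, for 1448107_x_at, to 0.152 and 0.106 without 129/Sv array 1 or 2 and to 0.0502 without B6 array 2, and, for 1415837_at, to 0.147, 0.113 and 0.0524. With no filter on low signals none of these Klk1 differences passed (adjusted p between 0.0514 and 0.0999). The direction was kept in each of these fits.

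**Figure D1:**
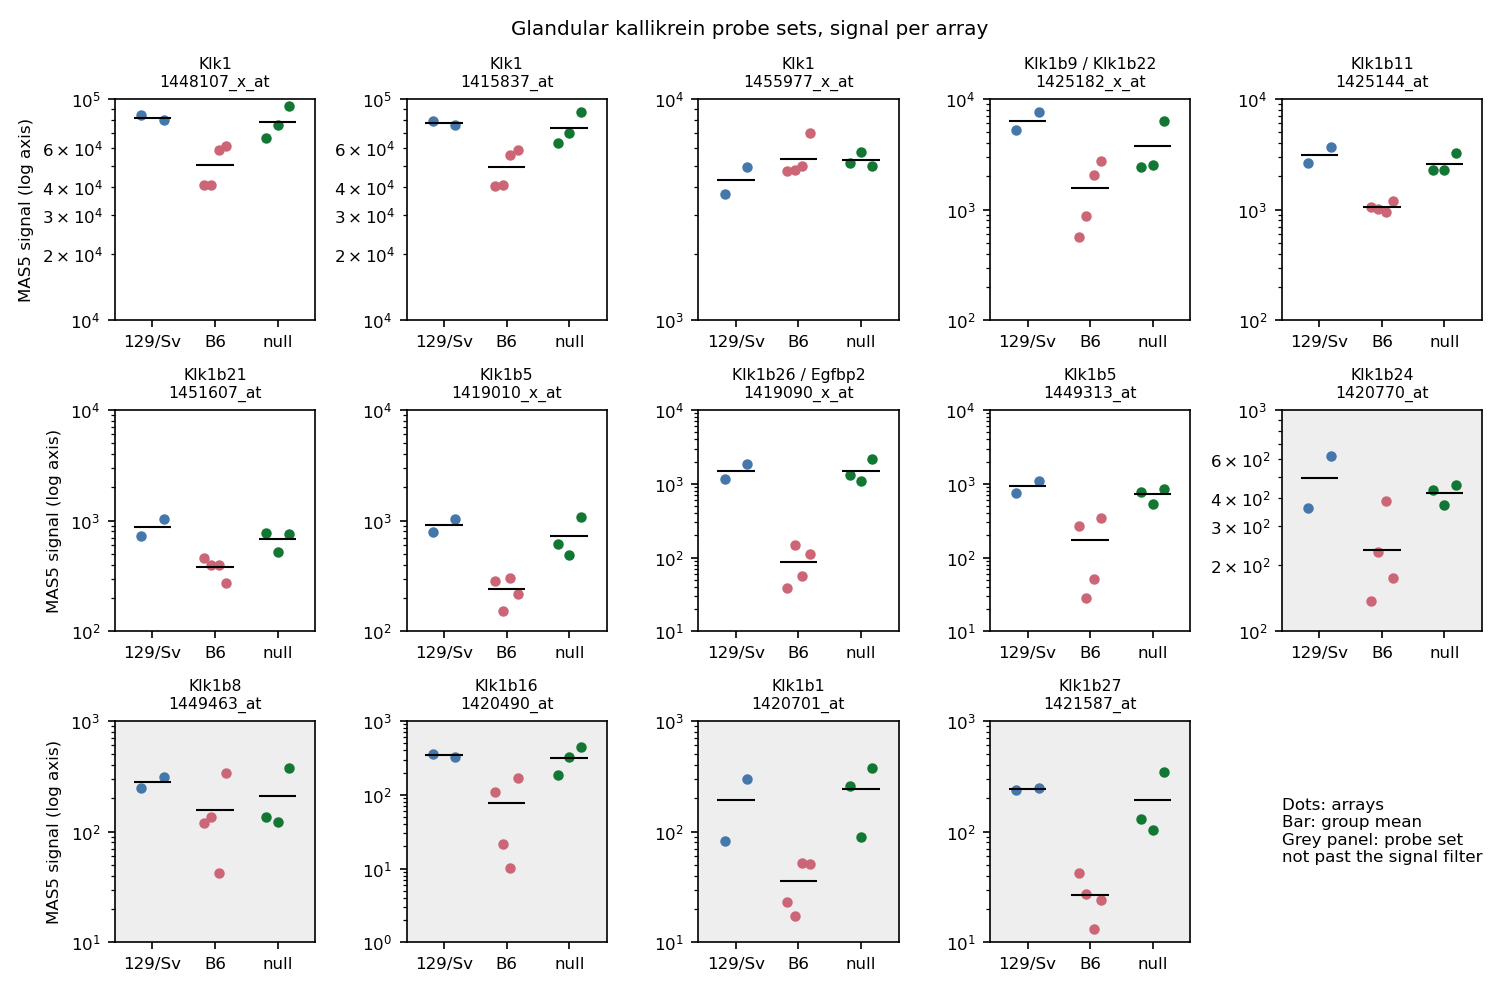
MAS5 signal (log axis) of each of the 14 kallikrein probe sets on each array, by group, with a bar at the group mean; grey panels did not pass the signal filter. B6 dots lie below all 129/Sv dots in 11 of the 14 panels and below all null dots in 10, whereas the third Klk1 probe set, 1455977_x_at, has no such gap.

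The third Klk1 probe set did not follow the others. Probe set 1455977_x_at, designed to a different sequence record, read 4724.6, 4787.1, 4958.8 and 6991.9 on the B6 arrays, 5149.5, 5732.6 and 4980.1 on the null arrays and 3721.6 and 4927 on the 129/Sv arrays. B6 and null arrays overlapped, and both 129/Sv arrays lay below all 3 null arrays. The log2 difference of null from B6 was -0.004 (95% confidence interval -0.31 to 0.30, limma adjusted p = 0.995), an interval that does not reach the 0.59 and 0.65 of the other pair. It was 0.30 for B6 minus 129/Sv (-0.05 to 0.65, limma adjusted p = 0.367) and 0.30 for null minus 129/Sv (-0.07 to 0.67, limma adjusted p = 0.55). Over the 9 arrays its correlation with the 13 other kallikrein probe sets ran from -0.52 to 0.11 (median -0.09). Among those 13 the 78 correlations ran from 0.13 to 0.999 (median 0.789). These correlations are a description over 9 arrays in 3 groups, which share the group differences. Whether Klk1 differed between the groups thus depended on the probe set, and which transcript 1455977_x_at detects was not tested.

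Klk1b11, a secreted serine protease of the Klk1b family, gave the most even separation. Its probe set read 1061.5, 1004.9, 956.3 and 1191.3 on the B6 arrays, 2302.8, 2260.4 and 3237.8 on the null arrays and 2615.3 and 3660.3 on the 129/Sv arrays. The B6 arrays were tightly grouped, with a highest value 1.25 times the lowest, and all lay below the other 5 arrays. Klk1b11 was 2.42-fold higher in null than in B6 arrays (log2 difference 1.28, SE 0.16, limma adjusted p = 0.0006). B6 was lower than 129/Sv, with a log2 difference of -1.54 (SE 0.181, limma adjusted p = 0.000113). Null and 129/Sv values overlapped, with a log2 difference of -0.27 (95% confidence interval -0.68 to 0.14, limma adjusted p = 0.662). Both differences from B6 stayed past the threshold under each of the 22 alternatives run, each array left out in turn among them, with log2 differences of 1.11 to 1.37 for null minus B6 (highest adjusted p 0.0092) and -1.79 to -1.30 for B6 minus 129/Sv (highest adjusted p 0.00573).

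The probe set shared by Klk1b26 and Egfbp2 had the largest difference of the 14. It read 38.5, 149.5, 55.5 and 110.1 on the B6 arrays, 1322.9, 1073.8 and 2132 on the null arrays and 1158.6 and 1834.4 on the 129/Sv arrays. All B6 values lay under their array's median, and all other values above it. The signal was higher in null than in B6 arrays (log2 difference 3.95, SE 0.41, limma adjusted p = 0.000153), and B6 was lower than 129/Sv, at -3.96 (SE 0.465, limma adjusted p = 0.000116). Null and 129/Sv differed by -0.01 (95% confidence interval -1.06 to 1.04, limma adjusted p = 0.998). Both differences from B6 passed under each of the 20 alternatives in which the probe set was tested, with log2 differences of 3.37 to 4.21 for null minus B6 (highest adjusted p 0.00523) and -4.28 to -3.38 for B6 minus 129/Sv (highest adjusted p 0.00987). With B6 signals this low the size of the difference depends on the pseudocount, and null minus B6 was 4.21 with a pseudocount of 1 and 3.37 with 64. A second probe set annotated to Egfbp2 alone, 1421788_x_at, is outside the family rule. It read 400.2, 85.8, 202.2 and 328.3 on the B6 arrays, 544.4, 633.5 and 875.2 on the null arrays and 495 and 455.9 on the 129/Sv arrays. Its differences did not pass the test (1.53 for null minus B6, limma adjusted p = 0.101, and -1.05 for B6 minus 129/Sv, limma adjusted p = 0.305).

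Klk1b5, a Klk1b protease, was measured by 2 probe sets, and B6 was lowest on both. The first, 1419010_x_at, read 284.2, 152.7, 304.6 and 216 on the B6 arrays, 618.8, 487 and 1085.4 on the null arrays and 791.2 and 1039.3 on the 129/Sv arrays. The second, 1449313_at, read 264.1, 28.4, 51.9 and 340.2 on the B6 arrays, 778.8, 534.1 and 861.8 on the null arrays and 753.5 and 1096.3 on the 129/Sv arrays. On both, every B6 array lay below every other array, and on the second the B6 arrays spanned 12-fold.

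All B6 signals of both probe sets were under the array median, so the sizes depend on the pseudocount and no fold is given. For 1419010_x_at the null mean was above B6 (log2 difference 1.51, SE 0.336, limma adjusted p = 0.032). For 1449313_at the difference did not pass the test (2.46, SE 0.634, limma adjusted p = 0.0623), and it was 2.71 with a pseudocount of 1 (limma adjusted p = 0.0754) and 2.00 with 64, where it passed (limma adjusted p = 0.0412). In both cases B6 was lower than 129/Sv, at -1.90 (SE 0.381, limma adjusted p = 0.00866) and -2.81 (SE 0.718, limma adjusted p = 0.0347). Null minus 129/Sv was -0.39 (95% confidence interval -1.25 to 0.48) and -0.35 (-1.98 to 1.28), with limma adjusted p of 0.805 and 0.919.

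The Klk1b5 calls moved with single arrays. The call of 1419010_x_at for null against B6 was lost without 129/Sv array 1 or 2 (adjusted p 0.0527 and 0.0574), B6 array 2 or 4 (0.0597 and 0.0626) or null array 1 or 3 (0.0967 and 0.191), and with no filter (0.0547). For 1449313_at it was gained without B6 array 1 (0.0238) or 4 (0.0228), and without B6 arrays 1 and 2 together (0.0407). For B6 against 129/Sv, 1419010_x_at lost its call without 129/Sv array 1 or 2 (0.0557 and 0.148). There 1449313_at lost it without 129/Sv array 1 or 2 (0.151 and 0.29), without B6 array 3 (0.0678), without any 1 of the 3 null arrays (0.0526 to 0.0607) and with no filter (0.0525).

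The probe set shared by Klk1b9 and Klk1b22, whose products are epidermal growth factor-binding proteins, separated B6 from 129/Sv only. It read 570.9, 883.3, 2063.4 and 2752.8 on the B6 arrays, 2437.3, 2551.4 and 6319.3 on the null arrays and 5192.9 and 7547 on the 129/Sv arrays. Null array 3 lay among the 129/Sv values, and null arrays 1 and 2 lay below B6 array 4. The B6 mean was below that of 129/Sv, at -2.25 (SE 0.513, limma adjusted p = 0.0191). The difference of null from B6 was 1.37 (95% confidence interval 0.40 to 2.34, limma adjusted p = 0.157), and that of null from 129/Sv was -0.88 (-2.04 to 0.29, limma adjusted p = 0.594). B6 arrays 1 and 2 were again below 3 and 4, and without them the difference of null from B6 was 0.51 (limma adjusted p = 0.413) and that of B6 from 129/Sv -1.39 (limma adjusted p = 0.0392). The call against 129/Sv was lost without 129/Sv array 1 or 2 (0.0773 and 0.194) or B6 array 2 (0.051).

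Klk1b21, a further Klk1b protease, was likewise lower in B6 than in 129/Sv. It read 458.3, 394.7, 399.1 and 274.1 on the B6 arrays, 780.2, 521.4 and 761.8 on the null arrays and 731.9 and 1038.2 on the 129/Sv arrays. No B6 value reached the lowest value of either other group. The log2 difference of B6 from 129/Sv was -1.18 (SE 0.293, limma adjusted p = 0.0297), and null minus B6 was 0.82 (95% confidence interval 0.27 to 1.38, limma adjusted p = 0.134). The first call was lost without 129/Sv array 1 or 2 (0.0785 and 0.342), without B6 array 4 (0.0532) and with no filter (0.0604). Null minus 129/Sv was -0.36 (-1.02 to 0.31, limma adjusted p = 0.744).

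The remaining 5 probe sets, for Klk1b1, Klk1b8, Klk1b16, Klk1b24 and Klk1b27, did not pass the filter, and 4 of them (all but Klk1b24) lay under the array median on all 9 arrays. Detection calls were not used here, so their signals are near a level at which presence is not established. Klk1b27 read 42.6, 27.2, 13.2 and 24.2 on the B6 arrays, 130.7, 104.1 and 344.1 on the null arrays and 235.7 and 247.6 on the 129/Sv arrays. Klk1b16, which encodes gamma-renin, read 110.1, 21.7, 10.3 and 169.2 on the B6 arrays, 185.5, 320.9 and 444.8 on the null arrays and 354.4 and 328.2 on the 129/Sv arrays. Klk1b1 read 23.3, 17.2, 52.6 and 51.3 on the B6 arrays, 259.9, 89.9 and 377.8 on the null arrays and 83.2 and 299.5 on the 129/Sv arrays. In these 3 every B6 array was below every other array.

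Klk1b24 read 137.5, 227.6, 387.9 and 174.7 on the B6 arrays, 435.7, 372.8 and 457 on the null arrays and 361.3 and 621.4 on the 129/Sv arrays. Klk1b8 read 119.1, 134.4, 42 and 337.1 on the B6 arrays, 134.4, 121.6 and 376.8 on the null arrays and 249.7 and 312.4 on the 129/Sv arrays. For both, B6 overlapped the other groups. At Klk1b24 this was through B6 array 3, and at Klk1b8 the overlap with 129/Sv was through B6 array 4, while B6 arrays 2 and 4 lay among the null values. In a fit of all 22626 probe sets with no filter, Klk1b27 was lower in B6 than in 129/Sv (-2.63, SE 0.623, limma adjusted p = 0.0377) and its difference of null from B6 did not pass (2.16, SE 0.549, limma adjusted p = 0.0959). None of the other 4 passed in any comparison. Their differences of null from B6 were 2.18 for Klk1b16 (limma adjusted p = 0.192), 2.19 for Klk1b1 (0.154), 0.91 for Klk1b24 (0.421) and 0.49 for Klk1b8 (0.839).

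**Figure D2:**
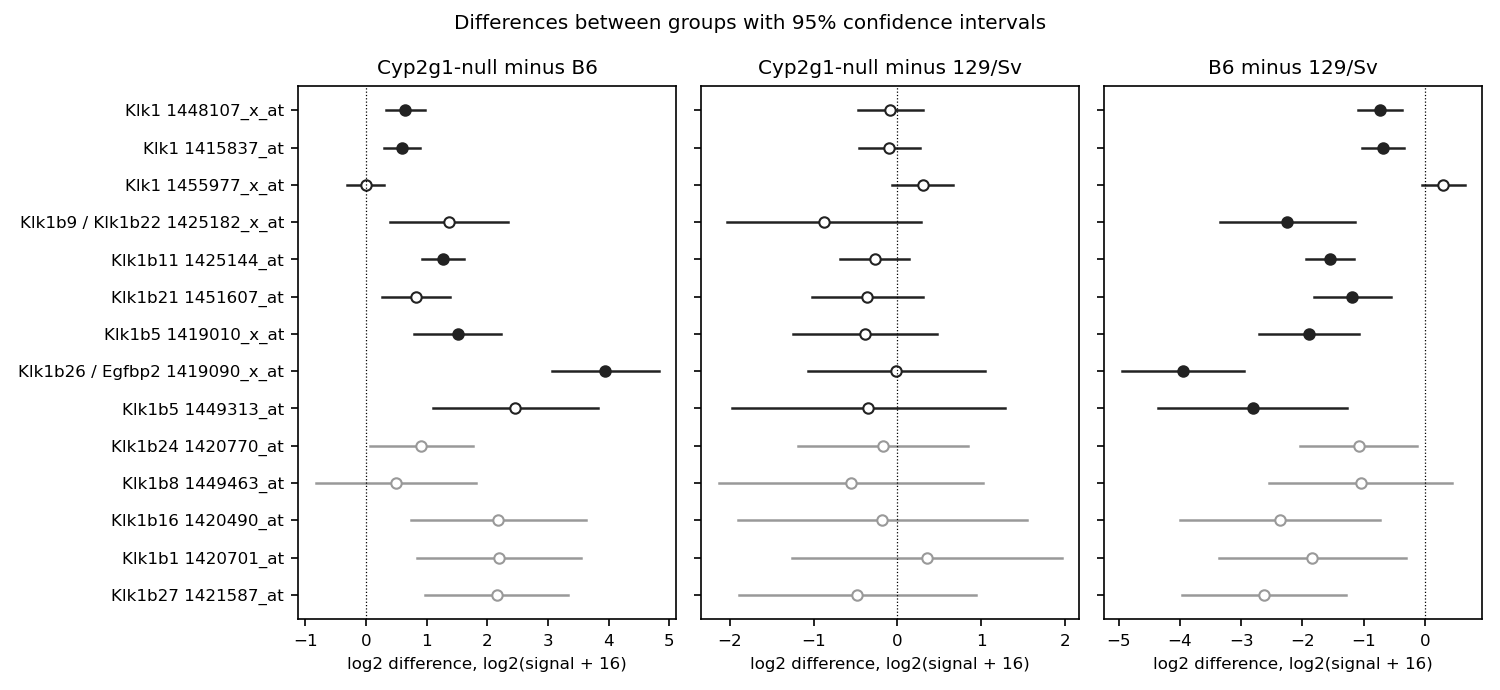
Log2 differences (log2(signal + 16), horizontal axis) with 95% confidence intervals for each kallikrein probe set in the 3 comparisons; filled points passed an adjusted p of 0.05 in the fit of 12575 probe sets, open black points did not, and grey points come from the fit with no filter and are drawn open whatever their p. Points lie right of 0 for 13 of 14 probe sets in null minus B6 and left of 0 for 13 of 14 in B6 minus 129/Sv, with 1455977_x_at at or beyond 0 on the other side.

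Counted over the family, 5 of the 9 tested probe sets differed between null and B6, all of them higher in null, where 2.18% of all tested probe sets differed (274 of 12575) and 1.11% were higher in null (139). None of the 9 differed between null and 129/Sv, where 2.04% of all did (256). At that share a count of 0 tells nothing about the members. Between the strains 8 of the 9 differed, all lower in B6, where 5.19% of all did (653) and 2.27% were lower in B6 (286). The 9 include the probe sets of Klk1b5, Klk1b21 and Klk1b26 with Egfbp2, which passed the filter only through 129/Sv and null arrays. They also include the pair of Klk1 probe sets that are not separate measurements. These counts thus describe the probe sets and are not support for a change of the family. In the fit with no filter, which keeps all 14, the counts were 2 of 14 for null against B6 (1.03% of all 22626), 0 of 14 for null against 129/Sv (0.941% of all, a share at which a count of 0 tells nothing about the members), and 5 of 14 for B6 against 129/Sv (2.58% of all).

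The array values of the 14 gave the same order with no test. For 10 of the 14 every null array was above every B6 array, as it was for 5.49% of all 22626 probe sets. For 11 of the 14 every B6 array was below both 129/Sv arrays, as it was for 9.79% of all. Null arrays were all above both 129/Sv arrays for 1 of the 14, 1455977_x_at, against 14.4% of all, and were all below them for 0 of the 14, against 12.5% of all. The median log2 difference over the 14 was 1.32 for null minus B6 (range -0.004 to 3.95), -0.23 for null minus 129/Sv (-0.88 to 0.35) and -1.69 for B6 minus 129/Sv (-3.96 to 0.30). Over all probe sets the medians were 0.006, 0.01 and 0.008. The mean log2 signal of null arrays lay above that of B6 and below that of 129/Sv for 12 of the 14, the exceptions being Klk1b1 and 1455977_x_at. The share of all probe sets with this order was not computed. No member passed between null and 129/Sv in either fit, so a place below 129/Sv is not resolved.

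The kallikrein signals also varied within groups. With each probe set set to its mean over the 9 arrays, the mean over the 14 was 0.61 and 1.04 (log2) on the 129/Sv arrays, -0.91, -1.14, -1.01 and -0.41 on the B6 arrays and 0.45, 0.28 and 1.08 on the null arrays. Array 3 was the highest null array for 12 of the 14, with Klk1b21 highest on array 1 and 1455977_x_at on array 2. B6 arrays 1 and 2 were both below arrays 3 and 4 at all 3 Klk1 probe sets, Klk1b1 and the probe set of Klk1b9 and Klk1b22, and both above them at Klk1b27. No such split of the B6 arrays was seen at Klk1b5, Klk1b8, Klk1b11, Klk1b16, Klk1b21, Klk1b24 or the probe set of Klk1b26 and Egfbp2. The share of all probe sets with such a split was not computed, and the brighter pair of Klk1 probe sets are not separate measurements. The splits therefore describe these probe sets and are not a result about the family.

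**Figure D3:**
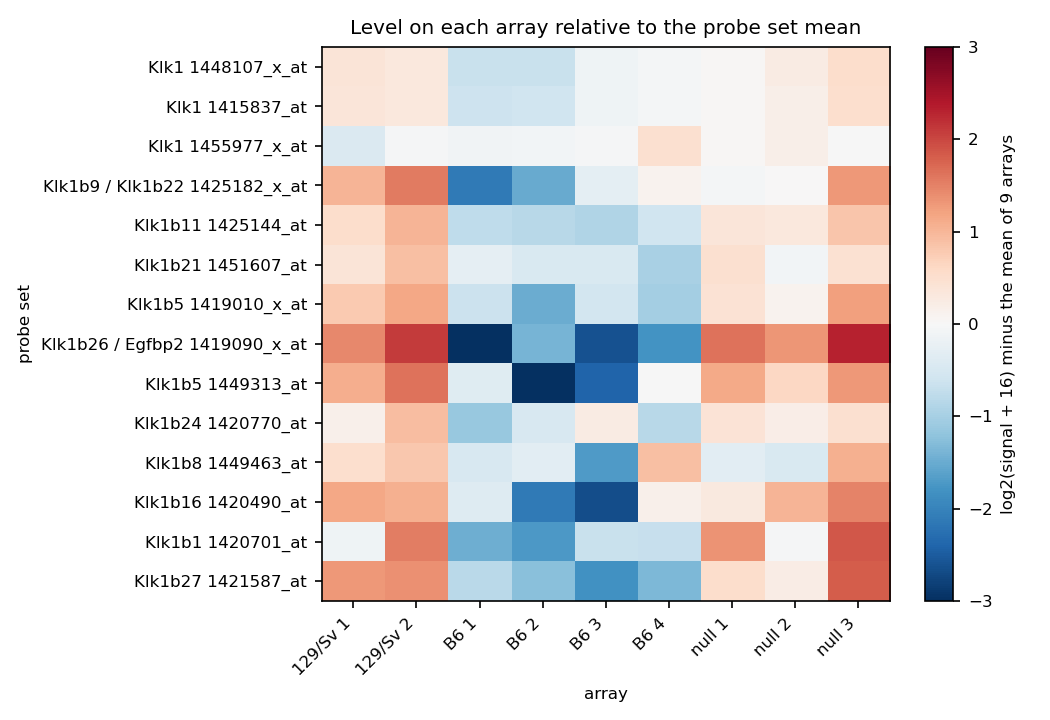
Each probe set's log2(signal + 16) on each array minus its mean over the 9 arrays (colour scale from -3 to 3; values beyond it take the end colour). The B6 columns are blue and the 129/Sv and null columns red for most rows, with null array 3 the reddest null column. The row of 1455977_x_at is pale throughout, with its strongest colours on B6 array 4 (red) and 129/Sv array 1 (blue).

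Of the genes whose pattern over the 9 arrays was most like the mean of the 9 tested kallikrein probe sets, Fam43a had the highest Pearson correlation (0.974) and Serpina3n, a secreted serine protease inhibitor, came next (0.966). Serpina3n group mean signals were 2787 in 129/Sv, 217 in B6 and 2732 in null glands. The other 6 were Pfn1, which encodes an actin-binding protein (0.961), the gluconeogenic enzyme gene Fbp2 (0.959), Timmdc1 (0.955), Chchd5 (0.955), Abhd1 (0.954) and Tcn2, which encodes a vitamin B12 carrier (0.95). All 8 had every null array above every B6 array. For Klk1 alone, by 1448107_x_at, the 5 most alike were Itfg2 (0.964), the DNA glycosylase gene Mpg (0.959), the autophagy kinase gene Ulk1 (0.952), Arf3 (0.948) and the desmosome gene Dsp (0.944). These correlations describe 9 arrays in 3 groups and were the highest among all tested genes by choice.

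Genes that act with kallikreins were read in short lists. Of all tested probe sets 2.18% differed between null and B6, 2.04% between null and 129/Sv and 5.19% between the strains. At these shares a count of 0 in lists as short as those below tells nothing about their genes. Of 17 genes for kinin precursors, receptors and breakdown, 14 had a probe set with 1 symbol and 7 were tested. Kng1, the kininogen that Klk1 cuts, and the kinin receptors Bdkrb1 and Bdkrb2 were under the array median on all 9 arrays, as were Cpn1, Cpn2, Xpnpep2 and F12. None of the 7 tested differed between null and either strain. Dpp4, a peptidase that trims peptides at their start, was lower in B6 than in 129/Sv (2460 in 129/Sv, 1452 in B6 and 1855 in null glands; -0.76, SE 0.16, limma adjusted p = 0.0112, and 0.162 without 129/Sv array 2). Xpnpep1, which removes the first residue of bradykinin, had mean signals of 4402, 3808 and 4000. The median log2 difference of the 7 was 0.10 for null minus B6, -0.23 for null minus 129/Sv and -0.24 for B6 minus 129/Sv.

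Of 18 serine protease inhibitor genes, 10 had such a probe set and 7 were tested. Serpina3n was higher in null than in B6 (3.85, SE 0.428, limma adjusted p = 0.000243) and lower in B6 than in 129/Sv (-3.90, SE 0.485, limma adjusted p = 0.00019), and no other inhibitor passed in any comparison. Without B6 arrays 1 and 2 these were 3.01 and -3.05, both still past the threshold. All B6 signals of Serpina3n (71 to 470.2) were under the array median, so it passed the filter only through 129/Sv and null arrays. The size depends on the pseudocount, and null minus B6 was 3.99 with a pseudocount of 1 and 3.50 with 64. Spint2, an inhibitor of epithelial serine proteases, had mean signals of 31433 in 129/Sv, 28834 in B6 and 28781 in null glands, and the intracellular inhibitor Serpinb6a had 4962, 5045 and 5099. The medians of the 7 were 0.09, -0.13 and -0.35 for null minus B6, null minus 129/Sv and B6 minus 129/Sv. Among 13 other kallikrein-related peptidases and plasma kallikrein, the 7 with a probe set (Klk4, Klk6, Klk7, Klk8, Klk10, Klk11 and Klkb1) were under the array median on all 9 arrays, and 0 were tested. Of 12 other epithelial serine proteases 6 were tested, and 0 passed in any comparison, which at the shares given above tells nothing about them. In 129/Sv, B6 and null glands Prss8, the protease prostasin, had mean signals of 2919, 3403 and 3239, and the membrane protease Tmprss2 had 2203, 1906 and 2041.

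Of 16 other secretory genes of salivary and nasal glands, listed here as androgen-responsive, 11 had a probe set with 1 symbol and 7 were tested. Whether androgens act on each of them in this gland was not examined. Car6, the secreted carbonic anhydrase, was higher in null than in B6 glands (mean signals 38433 in 129/Sv, 4100 in B6 and 54599 in null; 4.70, SE 0.936, limma adjusted p = 0.0158). Car6 ran from 387.5 to 8017.5 on B6 arrays and was 10385 and 66481 on the 129/Sv arrays. Its difference was 3.94 without B6 array 1, 5.38 without B6 array 3, 5.34 without B6 array 4 and 2.72 without B6 arrays 1 and 2, all past the threshold. Leaving out null array 1 gave Car6 an adjusted p of 0.0767, and leaving out null array 3 gave 0.0883. Crisp3, a secreted cysteine-rich protein, was lower in B6 than in 129/Sv (1149, 168.6 and 841.6; -3.21, SE 0.834, limma adjusted p = 0.0384). That call was lost without 129/Sv array 1 or 2 (0.265 and 0.169) and without any 1 null array (0.0581 to 0.0626), with a pseudocount of 1 (0.117) and with no filter (0.0598). Crisp3 read 2.7 to 316.6 on the B6 arrays, all under the array median, so it passed the filter only through 129/Sv and null arrays. Its difference of B6 from 129/Sv was -2.31 without B6 array 2 and -2.17 without B6 arrays 1 and 2. Over the 7 the median difference was 0.10 for null minus B6, 0.09 for null minus 129/Sv and -0.29 for B6 minus 129/Sv. Of 8 genes that handle epidermal and nerve growth factor, 4 were tested and 0 passed, among them Egf and its receptor gene Egfr (842.4, 702.9 and 765.1). At the shares given above this count of 0 tells nothing about these genes.

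Markers of the cells in the dissected tissue were set beside the kallikreins. Of 9 granular duct markers, 4 had a probe set with 1 symbol and 3 were tested, and 0 passed in any comparison. At the shares of all probe sets given above, this count of 0 tells nothing about the markers. Bhlha15, on this list but better known as a transcription factor of secretory acinar cells, had mean signals of 30782 in 129/Sv, 35227 in B6 and 31894 in null glands. Egf, the best-known secreted product of these ducts, had mean signals of 15355 in 129/Sv, 17136 in B6 and 15691 in null glands (null minus B6 -0.12, limma adjusted p = 0.59). The summed signal of the 4 was 46179 to 48270 in 129/Sv, 49994 to 56123 in B6 and 46313 to 52349 in null arrays. Most of each sum was Bhlha15, so the sum is not a measure of granular duct cells. Dcpp1 was under the median on all arrays. The 8 secretory gland markers measured, of 13, summed to 361051 to 414389, 456926 to 569575 and 507723 to 612335 in the same order. The secretoglobin genes Scgb1b27 and Scgb2b27 were higher in null than in 129/Sv (2.66 and 2.05, limma adjusted p = 4.27e-07 and 0.00015) and higher in B6 than in 129/Sv (2.15 and 1.33, limma adjusted p = 1.67e-06 and 0.00211). Against B6, null glands had lower Lcn3 (-1.12, SE 0.177, limma adjusted p = 0.00335) and higher Dmbt1 (0.62, SE 0.136, limma adjusted p = 0.0301). The Dmbt1 call was lost without B6 array 3 or 4 (0.0824 and 0.0601) or any 1 null array (0.0865 to 0.119).

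Most ciliated cell markers were, like most kallikrein probe sets, higher in null than in B6. Of 7, 5 were measured and tested, and 4 were higher in null than in B6, namely Tppp3 (0.56, limma adjusted p = 0.0175), Dnah5 (0.80, 0.00598), Lrrc23 (0.68, 0.0153) and Rsph1 (0.56, 0.0351). Of all tested probe sets 1.11% were called higher in null than in B6. The fifth marker, Foxj1, did not pass. Between null and 129/Sv and between the strains 0 passed, so the place of these markers against 129/Sv is not resolved. Of these calls, that of Dnah5 was kept with any 1 array left out, and those of Tppp3 (0.062 to 0.0999), Lrrc23 (0.0526 to 0.089) and Rsph1 (0.111 to 0.146) were each lost without any 1 null array. Tppp3 also lost its call without B6 array 4 (0.0502), Lrrc23 without B6 array 3 (0.0501) and Rsph1 without B6 array 2, 3 or 4 (0.0829, 0.101 and 0.0777). The median log2 difference of the 5 ciliated cell markers was 0.56 for null minus B6, 0.44 for null minus 129/Sv and -0.17 for B6 minus 129/Sv. For the 14 kallikrein probe sets these medians were 1.32, -0.23 and -1.69. The summed signal of the 5 markers was 11277 to 13066 in 129/Sv, 10195 to 12138 in B6 and 15746 to 16860 in null arrays. Of 8 olfactory neuron markers 6 were measured and 4 tested. The 6 summed to 1445 to 2385, 2352 to 8723 and 1913 to 5606, and Adcy3 alone passed, higher in B6 than in 129/Sv (1.26, limma adjusted p = 0.0224, and 0.201, 0.0637 and 0.0611 without 129/Sv array 1, 129/Sv array 2 or B6 array 4). Omp had mean signals of 710.9, 1675 and 1113 and S100a5 of 464.5, 1712 and 1038 in the same order. The part of either marker group in the kallikrein differences was not tested.

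The member genes lie together on chromosome 7, in a row of 14 protein-coding glandular kallikrein genes from Klk1b8 to Klk1, of which Klk1b3 and Klk1b4 had no member probe set. Cyp2g1 is on the same chromosome, with 311 protein-coding genes between it and the cluster in the RefSeq order. Of the 10 genes on each side of the cluster, 3 were tested, all beyond Klk1, and 0 differed in any comparison. Of all tested probe sets 2.18% differed between null and B6, 2.04% between null and 129/Sv and 5.19% between the strains. At these shares a count of 0 of 3 tells nothing about the neighbours. The nearest, 2410002F23Rik, had mean signals of 1603 in 129/Sv, 1412 in B6 and 1359 in null glands (null minus B6 -0.004, limma adjusted p = 0.996). Clec11a, which encodes a secreted growth factor for bone and blood cells, had 615.6, 720.8 and 726.1, and Syt3, a synaptotagmin gene, had 470.5, 540.1 and 580.7. The B6 mean was the lowest of the 3 groups at none of these neighbours. How far along the chromosome the kallikrein differences reach was not tested.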

How the data were processed

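RNA of pooled lateral nasal glands was measured on 9 Affymetrix arrays. The authors deposited linear signal intensities made with MAS5, per the submitters' processing notes (version not given in the sources used here). Every array had the same mean of 1500.6 after 2% of values were trimmed at each end, which shows a common scaling. Precision is limited by how many arrays there are. No detection call, saturation flag, batch or scan date was used here.

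From 22690 probe sets, 64 controls were left out. In the platform annotation 20380 of the rest had 1 symbol, 691 several and 1555 none. Signals were converted to log2(signal + 16), which understates changes of dim probe sets, with no further normalization. A mean per group was fitted to all 9 arrays by lmFit and eBayes (trend) of limma 3.58.1, under R 4.3.3. P-values are two-sided with Benjamini-Hochberg adjustment over all probe sets tested, also where a bracket gives only the number. Pearson correlations are on the log2 scale. The script was tested on simulated data.

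Members and gene lists were chosen with earlier results of these data known. Named were all member probe sets, up to 4 passing genes of each list, or its 2 brightest genes where fewer than 2 passed, the most similar patterns and the cluster's neighbours. List genes were represented by their brightest probe set with a single symbol. Adcy3, Foxj1 and genes under the array medians are named outside this rule. The result of 1 further list is not reported here. Promoter sequences and gene order come from RefSeq (GRCm38.p6), which held 15 of the 16 gene IDs of the member probe sets, and alignments were made with Biopython 1.88. Alternatives tried were equal array medians, quantile normalization, a pseudocount of 1 or 64, a 75th percentile filter, no filter, no probe set types that can match several transcripts, 1 probe set per gene, eBayes without trend, array weights, a replicate block, only the groups compared, no B6 arrays 1 and 2, and each array left out in turn.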

Additional observations from a re-analysis of the deposited data

Results flagged for a closer look

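On the Klk1 probe set 1455977_x_at, B6 array 4 stood far from the other B6 arrays, at 6991.9 against 4724.6 to 4958.8. On the log2 scale its gap to the nearest of them was 0.877 of the whole range of the group, above the limit of Dixon's test for 4 values. Chance alone marks about 1 in 20 groups in this way, and 14 probe sets were examined in the B6 group. Without this array the log2 difference of null from B6 was 0.13 in place of -0.004, and neither passed the test. On both other Klk1 probe sets, B6 array 4 was the highest of the B6 arrays too, at 61402.1 for 1448107_x_at and 59080.5 for 1415837_at, close to array 3.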

How the results depend on the processing

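The calls of Klk1b11 and of the probe set shared by Klk1b26 and Egfbp2 against B6 held under every alternative in which they were tested, and those of Klk1 and Klk1b5 did not. Of 555 values of single kallikrein probe sets under an alternative, 476 kept direction and side of the threshold, 61 lost the call, 8 gained it and 10 changed sign, none of these 10 past the threshold. Of 346 values of 16 called differences of list genes, 301 kept the call and 45 lost it. Where no value below shows it, the cause was not tested. The number of arrays (2, 4 and 3) and signals under the array median limit the dim members.

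For null against B6, 274 probe sets passed, against 154 with eBayes without trend, 490 with array weights, 542 without B6 arrays 1 and 2, and 153 to 611 with an array left out (without null array 3 and without B6 array 1). Of the kallikreins 5 passed, against 2 with no filter, 2 without types that can match several transcripts (4 tested), 3 with 1 probe set per gene (4 tested), 2 without trend and 2 with only these groups fitted, and 2 to 5 with an array left out (2 without 129/Sv array 1, B6 array 2 or null array 3). For null against 129/Sv, 256 passed, against 163 without those types, 165 with 1 probe set per gene, 166 without trend, 410 without B6 arrays 1 and 2, and 127 to 326 with an array left out; the kallikrein count was 0 and became 1 with the replicate block. For B6 against 129/Sv, 653 passed, against 407 with 1 probe set per gene and 341 to 863 with an array left out. Of the kallikreins 8 passed, against 5 with no filter, 5 with the filter at the 75th percentile (6 tested), 4 without those types (4 tested), 4 with 1 probe set per gene (4 tested), 4 without trend, and 2 to 8 with an array left out (2 without 129/Sv array 1 or 2).

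Equal array medians changed the split of higher and lower calls from 139 and 135 to 123 and 154 for null against B6, from 177 and 79 to 139 and 111 for null against 129/Sv, and from 367 and 286 to 340 and 356 for B6 against 129/Sv. The signs that changed were those of 1455977_x_at for null minus B6 (0.0057 with quantile normalization, 0.1297 with the replicate block, and -0.0633 to 0.1297 with an array left out), and, for null minus 129/Sv with an array left out, those of 1415837_at (-0.2258 to 0.0096), 1448107_x_at (-0.2092 to 0.0314) and the probe set of Klk1b26 and Egfbp2 (-0.3385 to 0.3172).

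The replicate numbers did not pair the arrays: deviations of the 7 same-numbered pairs correlated between -0.075 and 0.0963. With the replicate number as a block, 221, 281 and 558 probe sets passed for null against B6, null against 129/Sv and B6 against 129/Sv, and 6, 1 and 7 kallikrein probe sets. The probe set of Klk1b9 and Klk1b22 passed against both with the block (limma adjusted p = 6.96e-05 and 0.000889).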

Other observations

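The place of null glands between the strains was also read at genes other than kallikreins. These values were computed after the kallikrein values had been seen, they use the same arrays, and they carry no test. Of 384 genes that differed between B6 and 129/Sv, the null mean lay nearer to 129/Sv for 169 (44%). On chromosomes other than 7 this held for 146 of 348 (42%), and on chromosome 7 for 23 of 36 (63.9%). On chromosome 7 it held for 9 of 12 genes before Cyp2g1, for 3 of 8 between Cyp2g1 and the kallikrein cluster, for the 1 gene within 100 genes beyond the cluster, and for 10 of 15 further on. Each of these stretches holds fewer than 20 genes.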
